A study of Mus musculus with 6 samples.

Results

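The transcripts described here are typical of red blood cells and were measured in brain tissue: the adult beta globin genes Hbb-bs and Hbb-bt, the adult alpha globin genes Hba-a1 and Hba-a2, and Alas2, which encodes the erythroid form of the first enzyme of haem synthesis. They were taken as the rows of the deposited table whose Ensembl identifier carries one of these symbols in GENCODE M21. All 5 genes were found, among 17889 genes in the table. All 5 also passed the minimum for testing, a mean of 10 normalized counts over the libraries, as did 14969 genes in all. The genes were selected on their normalized counts in these same 6 libraries, so their values are given as a description, without a p-value.

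Stranded mRNA libraries were prepared from prefrontal cortex, taken at postnatal day 28 from mice of the C57BL/6J strain. There were 3 wild-type (WT) samples, and 3 samples titled Hetero whose genotype label reads Cyfip2 mutant. The labels give neither the allele nor the mutated part of Cyfip2, a gene of the actin-regulating WAVE complex, and they do not mention perfusion, sex, separate animals or a batch. A p-value therefore reflects only the sample-to-sample spread, part of which may be technical. Cyfip2 read 31933, 30496 and 27503 in WT and 20959, 21237 and 18285 in Hetero.

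Mature red blood cells of mammals have no nucleus and make no new RNA. Reticulocytes, the young red cells that circulate before the last RNA is lost, still hold messages for globin and for haem synthesis. Adult haemoglobin is a tetramer of alpha and beta chains, each holding a haem group. Neurons have also been described to express some globin at low levels, and a bulk library does not separate the sources. Fewer blood cells in a sample and less RNA per blood cell likewise cannot be told apart in bulk tissue.

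The adult globin genes lie in 2 clusters, and in GRCm38 coordinates Hbb-bs (ENSMUSG00000052305) spans 103826534 to 103828096 and Hbb-bt (ENSMUSG00000073940) 103812524 to 103813996 on the minus strand of chromosome 7. Hba-a1 (ENSMUSG00000069919) spans 32283511 to 32284465 and Hba-a2 (ENSMUSG00000069917) 32296489 to 32297298 on the plus strand of chromosome 11. Alas2 (ENSMUSG00000025270) spans 150547375 to 150570638 on the plus strand of chromosome X. All 5 are protein coding. Transcripts from 3 chromosomes had the same high and low libraries, and the 250 bases before the RefSeq start site are shown for 4 of the genes. A link between these sequences and the levels in the libraries was not tested. Capitals mark matches, on either strand, to 4 short motifs. These are ATATAA, a form of the TATA box; CCAAT, known as the CCAAT box; the core letters CACCC, bound by the erythroid Krüppel-like factor; and the core letters GATAA, bound by factors of the GATA family. Sequences are from RefSeq on GRCm38.p6, 5′ to 3′ on the strand of the gene. The RefSeq start sites lie inside the GENCODE spans given above, so part of each window overlaps the gene as GENCODE places it.
Hbb-bs, chr7:103827929-103828178, minus strand: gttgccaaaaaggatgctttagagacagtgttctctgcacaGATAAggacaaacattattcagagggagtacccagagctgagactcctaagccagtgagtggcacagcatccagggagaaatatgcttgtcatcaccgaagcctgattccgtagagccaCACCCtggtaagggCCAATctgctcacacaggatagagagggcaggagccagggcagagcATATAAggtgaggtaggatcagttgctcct
Hbb-bt, chr7:103813924-103814173, minus strand: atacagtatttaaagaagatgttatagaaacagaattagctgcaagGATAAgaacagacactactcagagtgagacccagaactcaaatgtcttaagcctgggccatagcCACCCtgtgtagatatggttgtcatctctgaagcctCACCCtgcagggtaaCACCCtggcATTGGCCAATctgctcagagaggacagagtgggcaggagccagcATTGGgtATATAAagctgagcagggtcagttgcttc
Hba-a1, chr11:32283422-32283671, plus strand: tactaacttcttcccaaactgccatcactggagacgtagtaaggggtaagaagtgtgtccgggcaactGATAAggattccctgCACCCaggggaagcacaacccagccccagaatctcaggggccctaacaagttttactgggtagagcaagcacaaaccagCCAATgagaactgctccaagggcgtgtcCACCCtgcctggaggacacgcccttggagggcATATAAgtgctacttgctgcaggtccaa
Alas2, chrX:150547167-150547416, plus strand: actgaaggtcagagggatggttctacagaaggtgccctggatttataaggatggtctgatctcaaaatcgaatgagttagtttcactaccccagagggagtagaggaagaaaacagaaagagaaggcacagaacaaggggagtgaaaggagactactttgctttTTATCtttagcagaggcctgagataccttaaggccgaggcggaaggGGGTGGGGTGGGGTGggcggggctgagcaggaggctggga

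The 4 globin windows each held all 4 motifs, and the Alas2 window held GATAA and CACCC without CCAAT or ATATAA. In the globin windows ATATAA began 28 to 31 bases before the start site, and a CCAAT on the strand of the gene began 75 to 91 bases before it. In the Alas2 window the GATAA match lay on the opposite strand, 86 to 82 bases before the start, and CACCC occurred 3 times on the opposite strand. Hbb-bt also held CCAAT on the opposite strand, in 1 case next to the forward match. Of 32841 RefSeq promoter windows of this length, 22.6% held GATAA, 52.0% CACCC, 33.9% CCAAT and 9.10% ATATAA, and 0.466% held all 4. A match is a description of the letters and not a bound site. The Hba-a2 window is not printed, because it shares a run of 247 bases with that of Hba-a1. The longest run shared by the Hbb-bs and Hbb-bt windows was 14 bases.

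The coding sequences of the paired genes are nearly the same. Hba-a1 and Hba-a2 have 426 coding bases each and differ at 1 of them, with a longest shared run of 380 bases. Hbb-bs and Hbb-bt have 441 coding bases each and also differ at 1, with a shared run of 416 bases. Reads from these stretches cannot be assigned to a single gene, so the split within each pair depends on the authors' quantification and is uncertain. Between the families, Hba-a1 and Hbb-bs were compared, and their longest shared run was 14 bases.

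Hbb-bs, a main adult beta globin gene of this strain, had normalized counts of 8701, 4579 and 14068 in WT samples 1 to 3. In Hetero it read 6614, 6638 and 16979. The highest value in each group was that of its sample numbered 3, the lowest of all was WT sample 2, and the groups overlapped. Hbb-bt, the second adult beta gene, read 1971, 1038 and 3494 in WT and 1624, 1561 and 3899 in Hetero.

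Hba-a2 read 9670, 5262 and 16097 in WT and 7399, 7577 and 18246 in Hetero. Hba-a1 read 6468, 3757 and 11677 in WT and 5132, 5424 and 12573 in Hetero. Both alpha genes thus had the same high and low libraries as the beta genes, and their groups overlapped too. Alas2 read 344, 172 and 729 in WT and 259, 289 and 807 in Hetero, again highest in sample 3 of each group and lowest in WT sample 2.

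**Figure D1:**
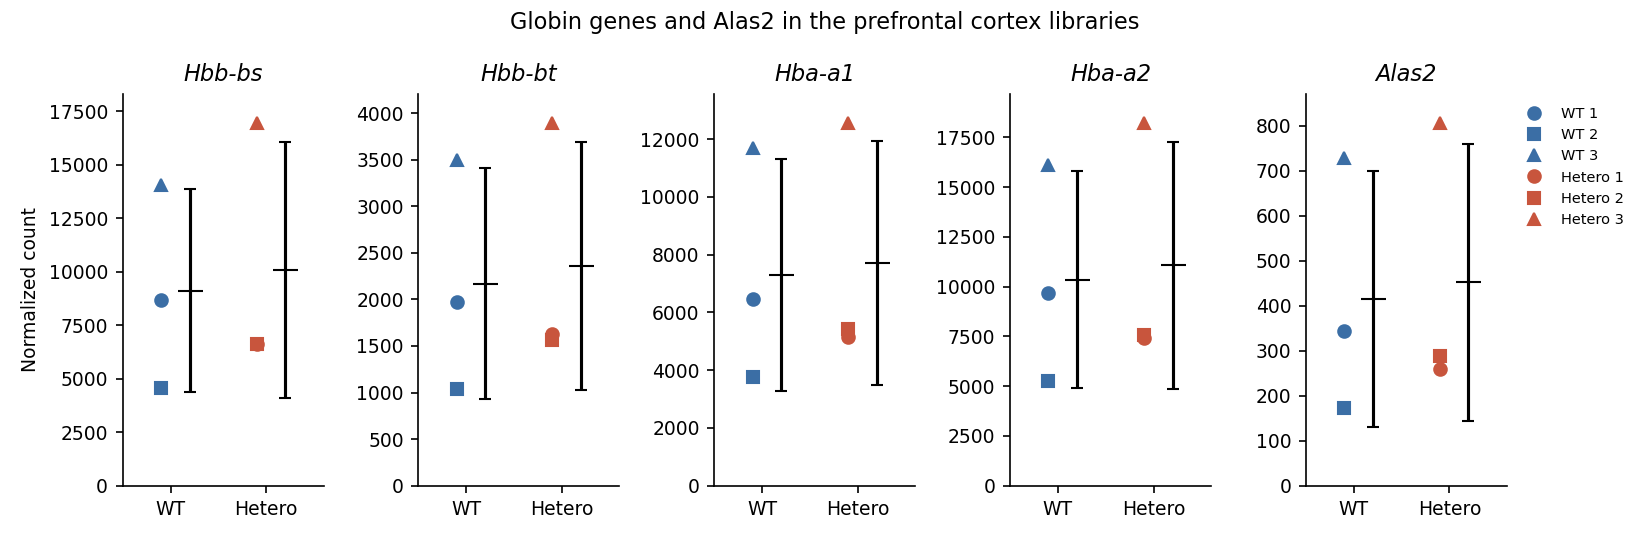
Normalized counts of the 4 globin genes and Alas2 (y axes, from 0) in 3 WT and 3 Hetero samples (x axis); symbols mark the sample number, and black bars give mean and SD of 3 samples. In every panel the sample numbered 3 is the highest of its group, WT sample 2 is the lowest of the 6, and the groups overlap.

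The ratio of the highest to the lowest library was 3.71 for Hbb-bs, 3.76 for Hbb-bt, 3.35 for Hba-a1, 3.47 for Hba-a2 and 4.69 for Alas2. Over the 5 genes WT sample 3 was 1.62 to 2.12 times the next highest WT sample, and Hetero sample 3 was 2.32 to 2.79 times the next highest Hetero sample. On the log2(normalized count + 1) scale, the SD over the 6 libraries lay between 0.69 and 0.87. The median SD over all tested genes was 0.12, and over the 5846 genes averaging 1000 or more it was 0.08. Of those 5846 genes, 7 had a larger SD than Hba-a1, the 3 other globin genes among them. By SD Alas2 ranked 136 of 14969 tested genes, and the globin genes ranked between 219 and 257.

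Together the 4 globin genes made up 878, 477 and 1475 per 1000000 of the column total in WT samples 1 to 3, and 684, 697 and 1730 per 1000000 in the Hetero samples. This is 0.0477% to 0.173% of all normalized counts, so the blood transcripts took up a small part of every library. The mean was 943 ± 502 per 1000000 in WT and 1037 ± 601 per 1000000 in Hetero (SD, n = 3 each). Estimated depth did not follow this order. From the spacing of low values, WT sample 3 was estimated at about 25500000 assigned reads, the fewest of the 6 libraries, and Hetero sample 3 about 43900000, the most.

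The make-up of the globin message was far steadier than its amount. Per kilobase of transcript, the beta genes summed to 0.624, 0.590 and 0.598 of the alpha genes in WT and to 0.621, 0.597 and 0.640 in Hetero. That ratio varied with an SD of 3.20% of its mean, against 50.3% for the globin share of the library. Hbb-bt made up 16.8% to 18.2% of the beta signal per kilobase. Hba-a2 made up 63.5% to 65.4% of the alpha signal per kilobase, within the limits on splitting these pairs. The shares also rest on the transcript lengths used. These were 699 bases for Hba-a1, 554 for Hba-a2, 628 for Hbb-bs and 703 for Hbb-bt. The groups overlapped in all 3 measures.

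Alas2 did not keep quite the same proportion to globin. Its level per kilobase was 0.390%, 0.358% and 0.489% of the summed globin level in WT and 0.379%, 0.415% and 0.475% in Hetero. The highest 2 shares were those of the samples numbered 3, the same libraries with the most globin. On the log2 scale Alas2 changed by 1.23 per unit of the globin level, for which each globin gene's log2 values were centred on 0 and the 4 genes averaged. The Pearson correlation of Alas2 with that level was 0.998 over the 6 libraries, and Hbb-bs and Hba-a2 had a correlation of 0.999. These correlations are descriptions across libraries, and 2 libraries carry much of their range.

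**Figure D2:**
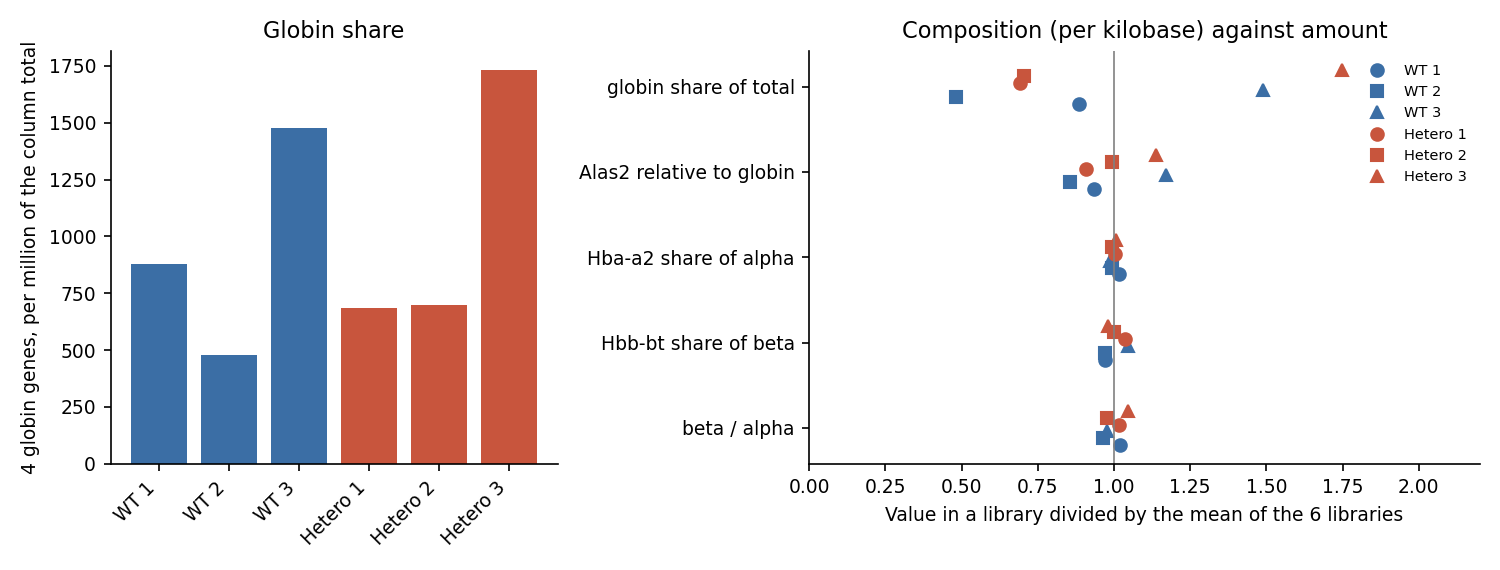
Left: summed normalized counts of the 4 globin genes per 1000000 of the column total (y axis, from 0) in each library. Right: 5 measures (y axis), each divided by its mean over the 6 libraries (x axis); the beta to alpha ratio and the shares within each pair lie close to 1, while the globin share of the total runs from 477 to 1730 per 1000000.

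The comparison of genotypes asked whether the blood transcripts differed between Hetero and WT. Fitted values were slightly higher in Hetero for all 5 genes, as for 49.1% of all genes tested, and by far less than the spread between samples. Hbb-bs averaged 9116 ± 4758 over the WT samples and 10077 ± 5977 over the Hetero samples (SD, n = 3 each). Its log2 difference was 0.14 with a standard error of 0.63, a fold of 1.10 with a 95% interval of 0.343 to 3.53 from the limma fit across all genes. Hba-a2 averaged 10343 ± 5449 and 11074 ± 6211 in the same order, a log2 difference of 0.11 with a standard error of 0.61. Alas2 had means of 415 ± 285 and 452 ± 308, a log2 difference of 0.16 with a standard error of 0.74 and a fold interval of 0.293 to 4.27. For Hbb-bt and Hba-a1 the log2 differences were 0.16 and 0.10.

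These intervals are wide: differences of up to about 3.31-fold for Hba-a1, the narrowest, were compatible with the samples. The values therefore do not show that the groups are alike. None of the 5 genes (0 of 5) passed an adjusted p under 0.05 in limma, against 0.00% of all 14969 genes tested, and 573 genes (3.83%) had an unadjusted p under 0.05. For 0 of 5 genes did the groups not overlap, against 8.72% of all genes tested. Nothing is read from these counts, since the genes were picked with this contrast known. The sign of the difference depended on which sample was left out. Without WT sample 2 the log2 difference of Hbb-bs was -0.29 and that of Alas2 -0.35, without Hetero sample 3 they were -0.32 and -0.36, and without WT sample 3 they were 0.52 and 0.69. Omitting sample 3 from each group, which was tried only once the data had been seen, Hbb-bs differed by 0.07 and Alas2 by 0.17.

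**Figure D3:**
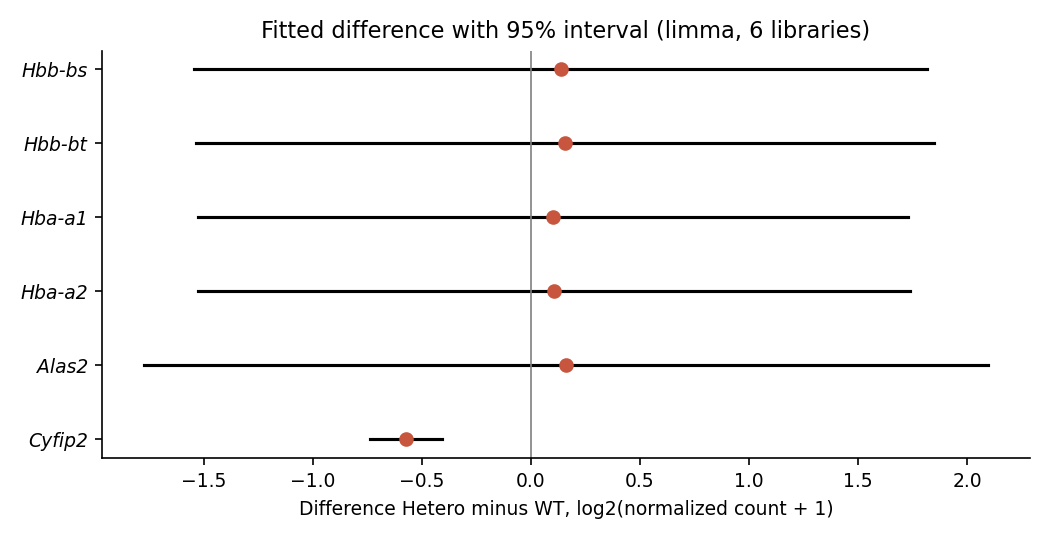
Fitted log2 difference between Hetero and WT (x axis, points) with its 95% interval (lines) for the 5 blood transcripts and Cyfip2 (y axis), from limma over 6 libraries. The intervals of the blood transcripts span 0 and reach beyond 3-fold, while that of Cyfip2 lies between -0.74 and -0.41.

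The globin level was then used as a covariate in the genotype comparison. With it, Cyfip2 differed by -0.56 (limma adjusted p = 0.031), against -0.57 (adjusted p = 0.31) without it. Cyfip2 was then the 1 gene called of 14969, and 714 genes had an unadjusted p under 0.05. Across 16 alternative settings Cyfip2 was lower in Hetero, with adjusted p values between 0.0016 and 1. The median standard error over genes was 0.091 with the covariate and 0.097 without. The covariate takes up 1 residual degree of freedom, and it also stands for whatever else varied between the libraries in the same order.

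The other red cell genes were taken from a list of 36 symbols, of which 25 were in the table and 11 were tested. Genes of this list differed in level. The erythroid transcription factor gene Klf1 read at most 4.98, and the embryonic globin gene Hbb-y at most 2.39. Epor, the erythropoietin receptor gene, read 71.4 to 134 with a correlation of -0.86 with the globin level, and Tal1, a transcription factor gene of blood and vessel cells, 49.3 to 102 with 0.03. Slc4a1, the band 3 anion exchanger of the red cell membrane, read 25.6, 5.98 and 27.7 in WT and 17.1, 21.8 and 45.3 in Hetero. Its 6 libraries fell in the same order as the globin level, with a Pearson correlation of 0.88 over the 6 libraries.

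Ube2l6, a conjugating enzyme for the ubiquitin-like protein ISG15, read 179, 122 and 210 in WT and 165, 150 and 234 in Hetero, with a correlation of 0.98. Klf1, Hbb-y, Epor, Tal1, Slc4a1 and Ube2l6 were chosen after their values were seen. The 4 tested genes of the list with the highest level gave the following values. Sptb, the gene of erythrocyte beta spectrin, read 4627 to 5257 with a correlation of -0.28, and Tmcc2 4553 to 4784 with 0.69. Ank1, the gene of erythrocyte ankyrin, read 1970 to 2414 with -0.10, and the transferrin receptor gene Tfr2 182 to 216 with 0.43. Over the 11 tested genes of the list the median correlation was 0.03, beside -0.004 over the 14964 tested genes other than the 5 blood transcripts. In 1 of the 11 genes, Ube2l6, the correlation was at least 0.9, against 1.40% of all genes tested.

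The remaining enzymes of haem synthesis varied little on average. The mean level of the 8 genes ranged from -0.08 to 0.05 on the log2 scale over the libraries. Single enzymes could vary more, as Ppox did by 1.38 times between its lowest and highest library. Of the 8 genes, 0 had a correlation of at least 0.9 with the globin level. The median correlation was 0.19, and -0.74 without the samples numbered 3, which leaves 4 libraries. Alas1, the form of the first enzyme used outside red cells, read 1661, 1668 and 1550 in WT and 1677, 1563 and 1718 in Hetero, with a correlation of -0.04. Fech, which inserts iron into protoporphyrin to complete haem, read 1742 to 1846 with a correlation of 0.30. Cpox and Ppox, which act just before it, read 749 to 887 and 680 to 941, with correlations of -0.54 and -0.45. Of the globins made by brain cells, Ngb, the neuronal globin, read 71.5 to 91.3 with a correlation of 0.18, and Cygb, cytoglobin, 1015 to 1133 with -0.69. Of 22 tested genes for haem and iron transport and breakdown, 12 had a positive correlation and 10 a negative one, beside 49.8% positive over all genes tested. The 2 with the highest level were Fth1, the heavy chain of the iron store ferritin (39136 to 48309, correlation 0.45), and Lrp1, a receptor that takes up haem bound to haemopexin (18435 to 24398, correlation 0.61).

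Some defining transcripts of white cells and platelets were near 0. Ngp, a neutrophil granule gene, read 11.2, 2.39 and 0 in WT and 2.29, 13.4 and 10.2 in Hetero. S100a8, a neutrophil calcium-binding protein gene, read 8.02, 1.20 and 1.25 in WT and 1.12, 9.03 and 6.01 in Hetero. WT sample 3, with the second most globin, was among the lowest for these 2 genes, while Csf3r and Cxcr2, the neutrophil genes with the highest level, had their highest value there. Ppbp, a platelet chemokine gene, read between 0 and 3.26, and the T cell receptor component gene Cd3e between 0 and 2.07. These 4 genes were chosen after their values were seen. Of the neutrophil list 5 of 15 genes were tested, with a median correlation of 0.35, of the platelet list 8 of 15, with 0.30, and of the lymphocyte list 5 of 19, with -0.06. The 2 tested genes with the highest level in each list were Csf3r (171 to 211) and Cxcr2 (41.7 to 61.9), Gp1bb (620 to 850) and Itgb3 (243 to 281), and Ighm (445 to 819) and Trbc2 (520 to 663). In the same lists Gp9 of platelets read 4.64 to 11.9, the T cell receptor gene Trac 0 to 8.35 and the antibody gene Igkc 0 to 5.01. F13a1 of the platelet list lay between, at 95.5 to 130. Gp9, Trac, Igkc and F13a1 were also chosen after their values were seen. The medians rest on the tested genes, and whether those stand for blood cells was not tested.

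**Figure D4:**
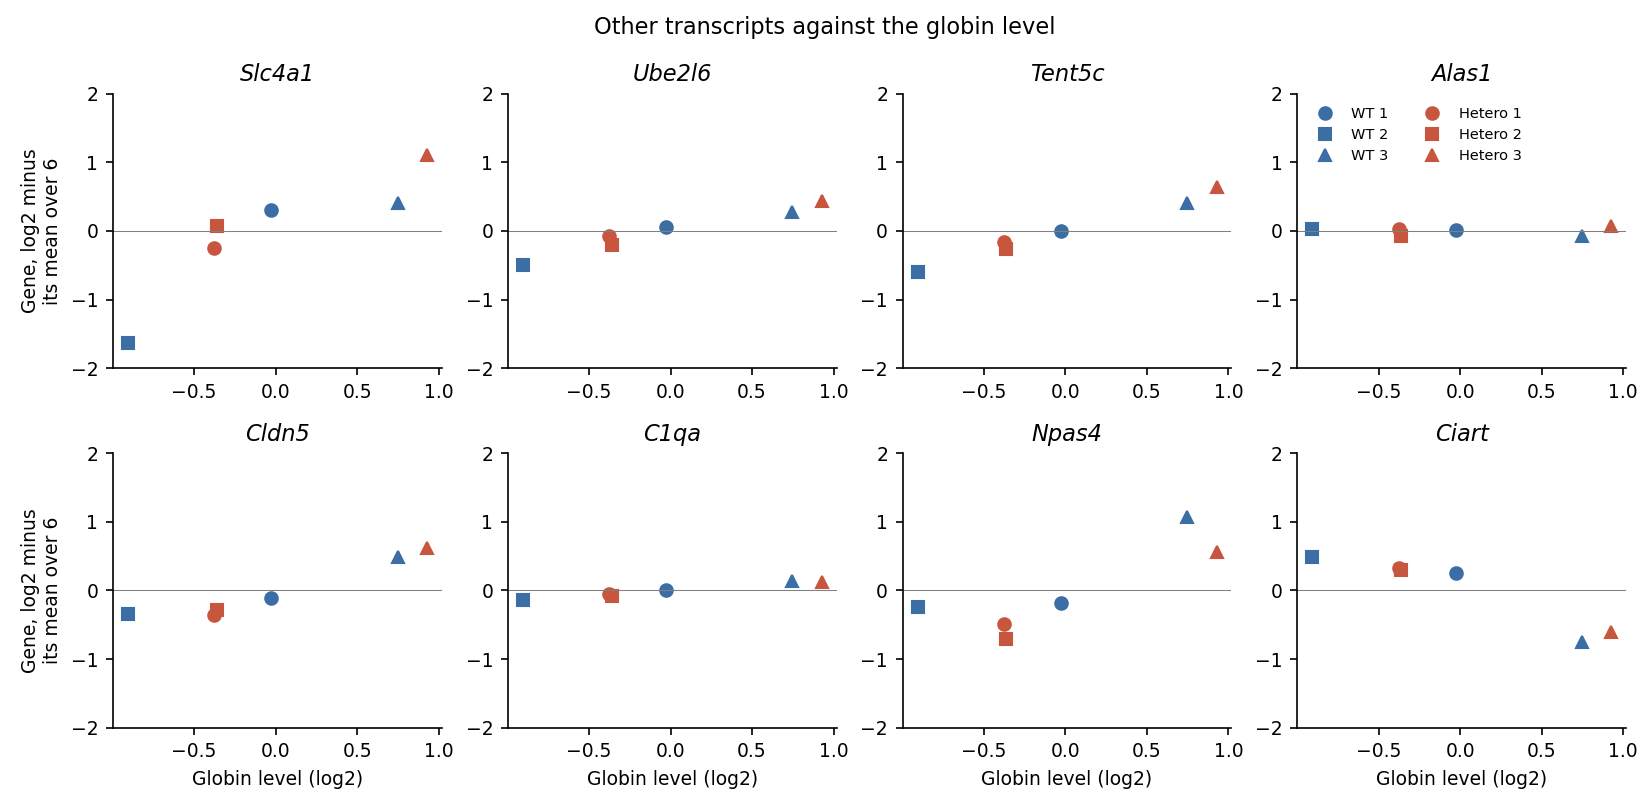
Centred log2 values of 8 genes (y axes) against the globin level (x axes, log2); each point is a library. Slc4a1, Ube2l6, Tent5c and C1qa are higher where globin is higher, and Alas1 varies little. Cldn5, Npas4 and Ciart differ mainly between the samples numbered 3 and the others. Among the others, Ciart still falls with the globin level (correlation -0.98).

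The relation of all other transcripts to the globin level was tested with limma, with the group in the fit, so that it describes the relation within groups. Of 14964 genes, 0 passed an adjusted p under 0.05, which is 0.00%, and 1540 (10.3%) had an unadjusted p under 0.05, 642 with a rising and 898 with a falling slope. The result depended on single libraries. Without WT sample 2, which had the least globin, 724 genes were called, 163 rising and 561 falling. Without WT sample 1 there were 47, without WT sample 3 there were 2, without Hetero sample 2 there was 1, and without Hetero samples 1 or 3 there were 0. Without sample 3 of both groups, added after the data were seen, 6 were called, 3 in each direction.

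The genes with a pattern most like the globin level were found by the Pearson correlation of log2 values over the 6 libraries. Among protein-coding genes, with predicted genes, RIKEN-named genes and pseudogenes left out, the 5 highest lay between 0.988 and 0.993. The 5 lowest lay between -0.989 and -0.978. Picked out of so many genes with only 6 libraries, values of this size are a description and carry no p-value. Tent5c, a poly(A) polymerase gene also expressed in red cell precursors, read 102, 67.4 and 136 in WT and 91.4, 85.1 and 160 in Hetero. Without the samples numbered 3 its correlation was 0.98. Its log2 slope was 0.63 per unit of the globin level, smaller than that of Alas2 at 1.23.

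The next 4 were Gjd2, the neuronal gap junction protein connexin 36, C1qa, a complement gene of microglia, Ripk2, a signalling kinase, and Prmt5, an arginine methyltransferase. Their slopes were shallow, at 0.32, 0.16, 0.25 and 0.11. C1qa read 677, 615 and 742 in WT and 650, 640 and 738 in Hetero, a spread of a small part of its level. At the other end were Sc5d, an enzyme of cholesterol synthesis, with a slope of -0.17, Ly75, an endocytic receptor gene, with -0.14, Ahcyl2 with -0.21, Chka, choline kinase alpha, with -0.22, and the heat shock factor gene Hsf4 with -0.24. Limma adjusted p values of these 10 slopes lay between 0.21 and 0.63. Of all genes, 209 (1.40%) had a correlation of at least 0.9 with the globin level and 206 (1.38%) one of at most -0.9.

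The genes with the smallest p were also taken from protein-coding genes only. The rising genes were Cldn5, the tight junction protein of brain endothelium (slope 0.60), and the RNA-binding protein gene Zfp36l1 (0.46). Also rising was the basement membrane collagen gene Col4a1 (0.25). The falling genes were Ciart, a repressor of the circadian clock (slope -0.72), Nhsl2 (-0.70) and the glucocorticoid-induced gene Tsc22d3 (-0.35). In limma, adjusted p values of these 6 slopes ran from 0.17 to 0.21. Each of the 6 passed without WT sample 1 and without WT sample 2, with adjusted p values between 0.0010 and 0.048 in limma. Without the samples numbered 3 the slopes of Cldn5, Ciart and Nhsl2 were 0.27, -0.27 and -0.45, with adjusted p values between 0.53 and 0.58. Cldn5 read 978, 832 and 1480 in WT and 823, 866 and 1619 in Hetero, and Ciart 750, 886 and 375 in WT and 791, 773 and 414 in Hetero. In both genes the samples numbered 3 stood apart from the other libraries. Among those other libraries the correlation with the globin level was 0.75 for Cldn5 and -0.98 for Ciart.

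Genes of the vessel wall were described by 2 lists. Of 21 endothelial genes, 17 had a positive correlation, with a median of 0.59, and 3 reached 0.9, against 1.40% of all genes. Their level was -0.01, -0.10 and 0.07 in WT samples 1 to 3 and -0.10, -0.01 and 0.14 in Hetero, a small range beside that of globin, which ran from -0.91 to 0.93. The endothelial genes with the highest level were Bsg, basigin (11945 to 15637, correlation 0.79), and Flt1, a VEGF receptor (2080 to 2275, 0.58). In pericytes and smooth muscle 7 of 14 genes had a positive correlation, with a median of -0.06. Their most abundant genes Rgs5 and Vtn had correlations of 0.35 and 0.63. Meningeal and fibroblast genes had a median of 0.16 over 18 genes, with Igf2 at 0.64 and Col6a1 at 0.34, and their level in WT sample 3 (-0.27) was the lowest of the 6 libraries. Without the samples numbered 3, which leaves 4 libraries, the median was 0.73 for meningeal and fibroblast genes. It was then 0.37 for endothelial genes and 0.39 for those of pericytes and smooth muscle. In these lists 0 genes passed an adjusted p under 0.05 in limma with all 6 libraries.

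Microglia genes had a median correlation of 0.48 over 17 genes, and oligodendrocyte precursor genes 0.52 over 11. Csf1r of the microglia list had a correlation of 0.48, and Olig1 and Gpr17 of the precursor list had correlations of 0.59 and 0.26. Without the samples numbered 3, which leaves 4 libraries, the medians of these lists turned to -0.47 and -0.40. Cortical neuron genes had a median of 0.12 over 16 genes. Camk2a, the kinase subunit of the postsynapse, read 114153 to 129923 and Slc17a7, the vesicular glutamate transporter of cortical neurons, 51008 to 58032. Genes of the tissue next to the cortex had a median of -0.11 over 12 genes, with Ppp1r1b at -0.21. The choroid plexus, a blood-rich tissue, had 4 of 9 genes tested. Its marker Ttr, the gene of transthyretin, read 4.32 to 42.6 with a correlation of 0.13, and Kl, the gene of klotho, 24.1 to 52.9 with -0.12.

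Red cell genes that neurons and glia also use went both ways: 7 of 19 had a positive and 12 a negative correlation. Dmtn, a gene of the red cell membrane skeleton and the most abundant of them, read 10435 to 11909, with a correlation of 0.17. Immediate early genes, which respond to neuronal activity within minutes, had the highest median of the lists examined. It was 0.69 over 19 genes, 15 of which had a positive correlation, and 0 reached 0.9. Their level was highest in WT sample 3 (0.18) and Hetero sample 3 (0.35) and lay between -0.18 and -0.06 in the other libraries. Of the 2 with the highest level, Egr1 had a correlation of 0.30 and Arc 0.74. Without the samples numbered 3 the median of the list was -0.04. The part of blood in any of these relations was not tested.

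**Figure D5:**
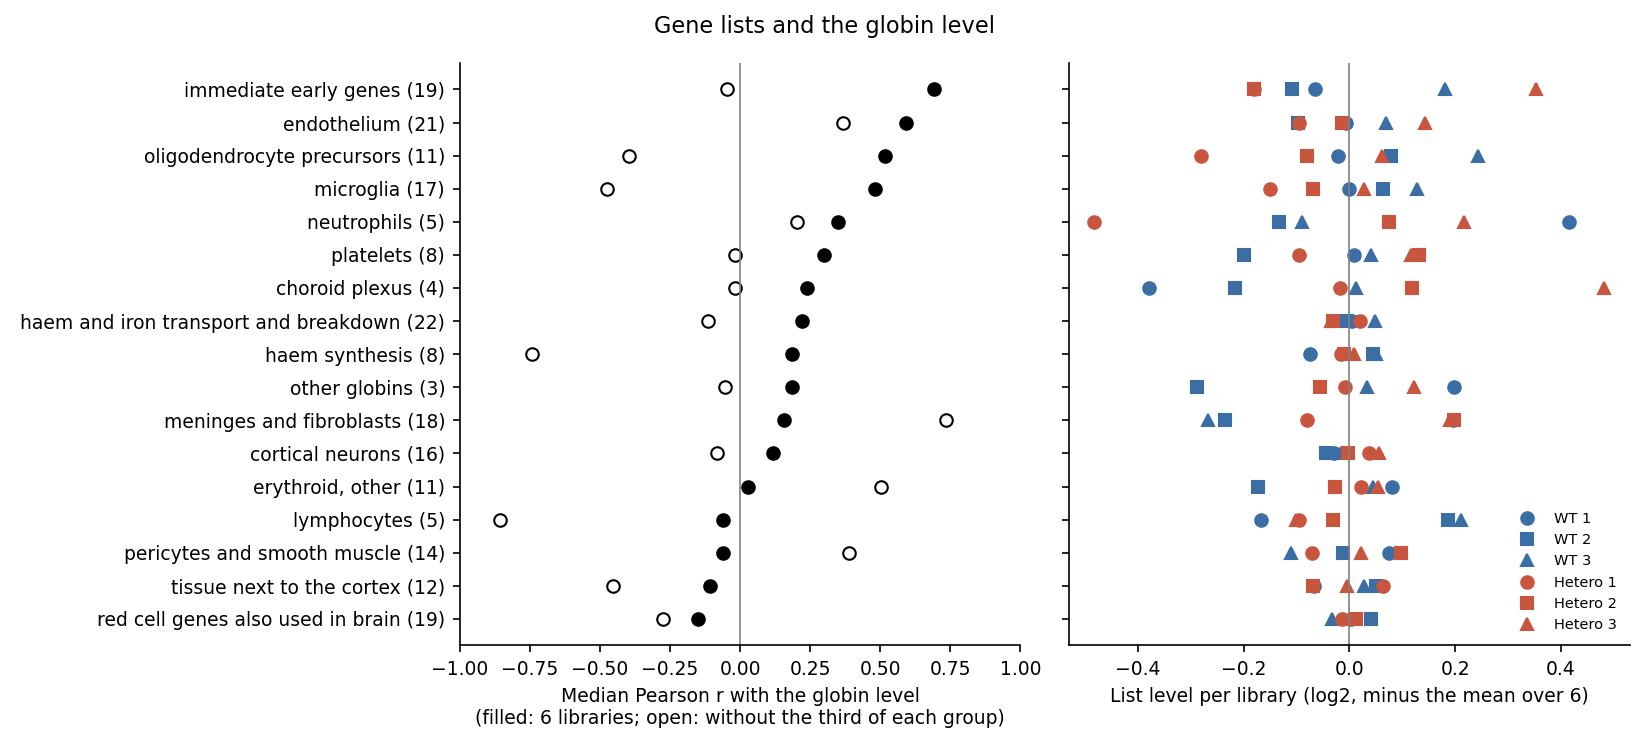
Left: median Pearson correlation with the globin level over the tested genes of each list (number in brackets), over 6 libraries (filled) and without the samples numbered 3 (open, 4 libraries). Right: level of each list in each library (log2, minus the mean over 6); the immediate early genes have the highest median (0.69), which falls to -0.04 without those samples.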

How the data were processed

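The deposited file holds normalized counts for all 6 samples, which were read as a signal, since these deposited values are fractional, at least 0 and nearly equal in sum across samples. The build GRCm38 and the tools DESeq2 1.19.11, Salmon 0.11.2 and R 3.6.0 come from the submitters' processing notes, which give them no role. How the authors scaled and annotated the values is not given in the sources used here. Of the identifiers, 17875 matched GENCODE M21 and 14 did not. A single step divided 15.5% to 27.9% of values under 60 into whole multiples (within 0.02), so whole reads were not recovered; dividing each total by its step put depths at about 25500000 to 43900000 reads.

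Values were analysed as log2(value + 1) for genes with a mean of at least 10, with limma 3.58.1 in R 4.3.3 (trend and robust fitting, two-sided, Benjamini-Hochberg adjustment, threshold 0.05). The fits were Hetero against WT, and the globin level with group as a covariate, there adjusted over the genes other than the 5 blood transcripts. Log2 differences understate changes of low genes. Levels per kilobase use the longest coding transcript in GENCODE. The members, lists, alternatives and naming rule were chosen with earlier results of these data known. The rule named the 5 members, Cyfip2 and the 2 genes of each list with the highest mean (4 for the erythroid and haem synthesis lists). It also named the 5 highest and 5 lowest correlations, and the 3 smallest p values in each direction of the globin fit. The correlations and p values were ranked among protein-coding genes, without predicted genes, RIKEN-named genes and pseudogenes. Names from outside the rule are said to be so. Some genes that the rule names are not reported here. Both fits were tested on simulated data in which genes varied independently, so shifts shared by many genes in a library were not covered. The most variable genes were also simulated with less spread than measured. The outcome is not reported here, and no result rests on it. TMM factors were computed by the standard formula. Promoters are RefSeq's, on GRCm38.p6.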

Additional observations from a re-analysis of the deposited data

How the results depend on the processing

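The genotype comparison called 0 genes with all 6 samples, and also with the other pseudocounts, filters, scalings (TMM, median centring), the threshold of 0.1 and limma without trend and robust fitting. With the globin level as a covariate it called 1 gene and without sample 3 of both groups 4, and it called 0 to 1 with 1 sample left out (Rpl15-ps3 without WT sample 1, Gm10240 without Hetero sample 2). Rpl15-ps3 and Gm10240 are names from outside the naming rule. The sample number as a replicate block gave 2 calls, Cyfip2 and Jun. The labels do not say whether samples of the same number are pairs. Deviations from the group means correlated across genes by -0.005, 0.004 and 0.23 for numbers 1, 2 and 3. The value for number 3 was the highest between any WT and Hetero sample, but samples 1 and 2 did not correlate best with their own number. These correlations cannot decide on pairing, since deviations within a group are not independent. The block left the log2 difference of Hbb-bs at 0.14 and that of Alas2 at 0.16. The globin level fit called 0 genes under the other pseudocounts, filters and scalings, without trend and robust fitting, with the trend alone, at a threshold of 0.1, with no group term and with the level taken from Hbb-bs and Hbb-bt or from Alas2. It called 0 to 724 with 1 sample left out (724 without WT sample 2, 47 without WT sample 1), and 6 without sample 3 of both groups; the cause was not tested. Leaving out samples also leaves fewer residual degrees of freedom. Over 12 alternatives the log2 difference of the 5 blood transcripts lay between -0.36 (Alas2) and 0.69 (Alas2), and each was higher in Hetero in 10. These 12 do not include the other filters, the threshold of 0.1, limma without trend and robust fitting, or the globin level as a covariate. Pseudocounts, scalings and the block left the difference of Hbb-bs at 0.14, and its sign changed only with samples left out. The slopes of the 16 genes named from the globin fit kept their direction in each alternative, but without sample 3 of both groups those of Cldn5 (0.27), Ciart (-0.27) and Nhsl2 (-0.45) were smaller by over 1.5 times. Depth was estimated and was not tested as a limit.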

Other observations

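In 5 further genes the samples numbered 3, which held the most globin, lay outside the range of the other libraries. Per2, a core clock repressor, read 2160, 1893 and 680 in WT and 2351, 1959 and 983 in Hetero, and Dbp, a clock output gene, 2716, 2903 and 1706 in WT and 2873, 2850 and 1961 in Hetero. Npas4, a transcription factor gene induced by neuronal activity, read 768, 735 and 1824 in WT and 617, 533 and 1278 in Hetero. Btg2, another early response gene, read 368, 431 and 1406 in WT and 435, 435 and 1183 in Hetero. Slc2a1, a glucose transporter gene of brain endothelium, was lowest in the samples with the most globin. It read 4273, 4447 and 2894 in WT and 4258, 4410 and 3216 in Hetero, with a correlation of -0.91 over the 6 libraries. It was counted with the red cell genes also used in brain and not with the endothelial genes. Among the other 4 libraries the correlation with the globin level was 0.58 for Per2, -0.85 for Dbp, -0.04 for Npas4, -0.68 for Btg2 and -0.75 for Slc2a1. Not every activity gene had this pattern: Egr1 had its lowest value in WT sample 3 (9783), and Jun read 1268 there, below Hetero samples 1 (1382) and 2 (1373). These 5 genes and Jun were chosen after their values were seen, and the limma adjusted p of the slopes of the 5 on the globin level lay between 0.21 and 0.42.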
